A study of Mus musculus with 4 samples.

Results

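The core circadian clock genes *Arntl*, *Clock*, *Npas2*, *Per1*, *Per2*, *Per3*, *Cry1*, *Cry2*, *Nr1d1* and *Nr1d2* were examined in the spinal cord of nerve-injured mice. These 10 genes were taken by name from the 30222 distinct names on the array, and all 10 had a probe, with 13 probes in all. A level below is the normalized intensity of a probe of 60 bases, and where a gene had more than 1 probe, the main probe is the brightest by mean log2 level.

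RNA came from slices of lumbar segments L4 to L5, from male ICR mice, an outbred stock, 7 days after the right sciatic nerve was partially ligated (PSL). The mice were 5 to 6 weeks old at the start and lived under 12 h of light and 12 h of darkness, with lights on at zeitgeber time 0. Before ligation the adrenal glands were either exposed and left in place (sham+PSL mice) or removed (ADX+PSL mice, which drank saline), and this removes the main source of corticosterone. Each operation was sampled at ZT10 and at ZT22 with 1 array per operation and time, and the sources used here give neither how many mice an array stands for nor the side of the cord. ZT10 is late in the light phase and ZT22 late in the dark phase, so the arrays ask which genes differ between these times and whether they do so without the adrenal glands. With no replicate array, each difference is given with the deposited error of its spots (SD on the log2 scale). For bright probes this error is nearly the same value throughout, and it does not cover how mice or slices differ.

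In the clock, ARNTL (BMAL1) pairs with CLOCK or its relative NPAS2 and switches on genes that carry E-boxes, among them the *Per*, *Cry* and *Nr1d* genes. PER and CRY proteins then enter the nucleus and repress that pair, while the nuclear receptors NR1D1 and NR1D2 (REV-ERB alpha and beta) repress *Arntl* itself. Most tissues run this loop, and glucocorticoids are among the signals that can set its phase in cells outside the brain's central clock.

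Between 65.1% (ADX+PSL mice at ZT22) and 70.1% (ADX+PSL mice at ZT10) of the 39429 probes were well above background. Of the 10 clock genes, 9 were well above background on every array, and *Npas2* was so on the ZT10 arrays only.

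*Nr1d1* was the clock gene that varied most. Its highest and lowest levels lay 3.78-fold apart, and 0.852% of the probes measured on all 4 arrays had a range as wide. The range was 1.86-fold for *Per1* and 1.65-fold for *Arntl*, and between 1.18-fold (*Clock*) and 1.30-fold (*Cry1*) for the other 6 genes measured on every array. Of the 27 gaps between neighbouring levels of these 9 genes, 7 were larger than 1 spot error and 3 were larger than 2.

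**Figure D1:**
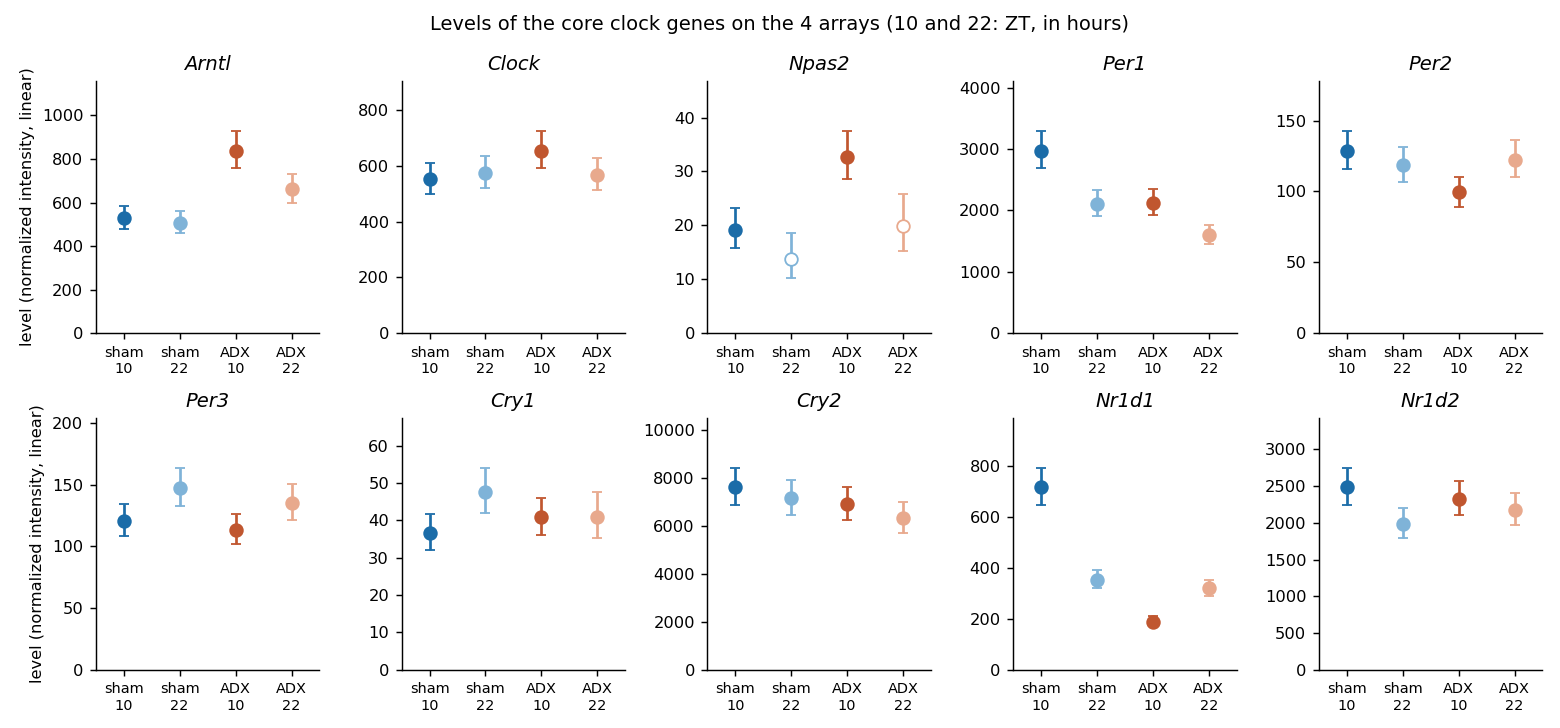
Level (normalized intensity, linear axis from 0) of each core clock gene on the 4 arrays, with bars of 1 SD of the spot error and open circles where the probe was not well above background. *Nr1d1* goes from 715 on the sham+PSL array at ZT10 to 189 on the ADX+PSL array at ZT10.

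In sham+PSL mice, 1 of the 9 clock genes with a ratio (*Nr1d1*) had a ZT10 level 1.5-fold or more above its ZT22 level and 0 lay that far below, where 2.69% and 3.8% of all 25813 probes with a ratio passed these limits. In ADX+PSL mice, 0 of 9 were higher and 1 was lower (again *Nr1d1*), where the shares of all probes were 1.92% and 3.24%. Between operations at ZT10, 2 of 10 were higher in ADX+PSL mice (*Arntl* and *Npas2*) and 1 was lower (*Nr1d1*), against 3.31% and 3.73% of all probes. At ZT22, 0 of 9 passed in either direction, against 3.1% and 3.22%. Each array enters 2 of these comparisons, so they are not independent of each other.

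The study's own limits ask for a ratio of 2 or more with a Z of 2 or more, or a ratio of 0.5 or less with a Z of -2 or less, where Z is taken here over all probes of the array pair. A probe also had to be well above background on 1 array of the pair or more. Among the clock genes, only *Nr1d1* between operations at ZT10 passed, where 1.74% of all probes were lower and 1.5% higher. With no background filter these shares were 2.59% and 2.3%. With a filter on all 4 arrays, which *Nr1d1* passed, they were 0.479% and 0.254%. No clock gene passed in the other comparisons. There the shares of all probes were 1.54% higher and 1.42% lower between times in sham+PSL mice, 1.46% and 1.17% in ADX+PSL mice, and 1.07% and 1.42% between operations at ZT22. For *Nr1d1* in sham+PSL mice the ratio alone was past 2 and the Z was 1.71.

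**Figure D2:**
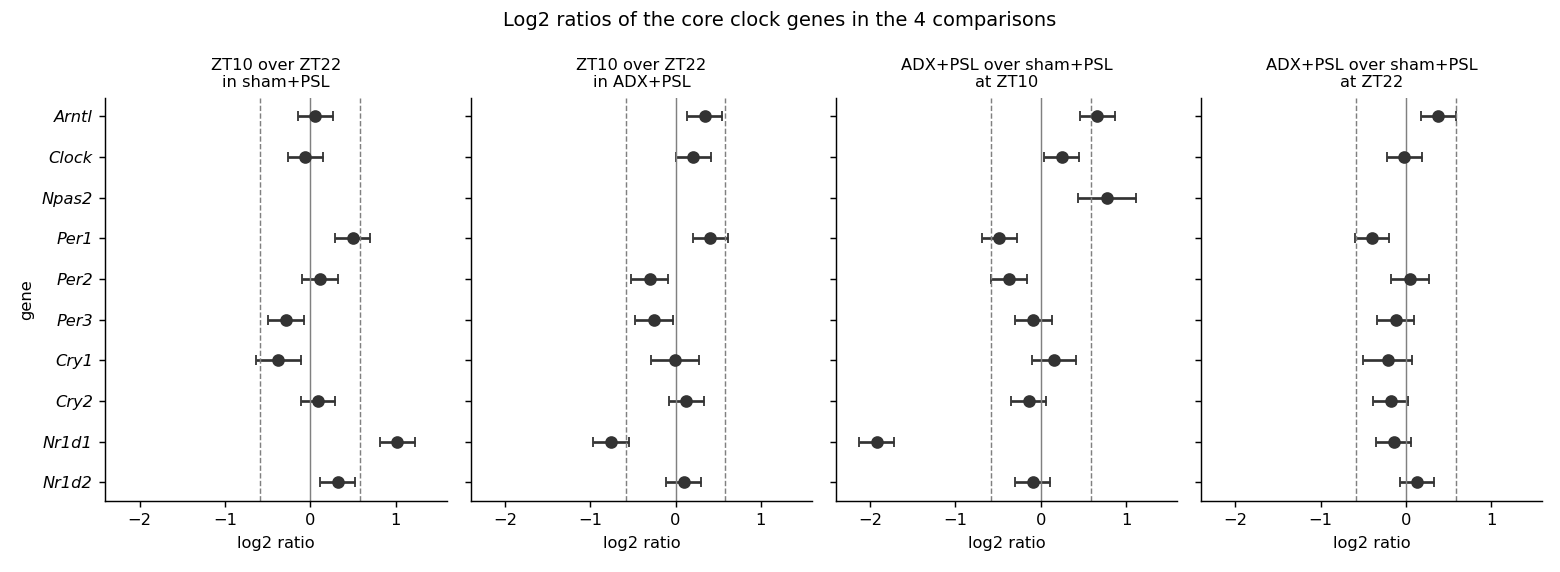
Log2 ratio of each core clock gene in the 4 comparisons, with bars of 1 SD of the spot error and dashed lines at a 1.5-fold difference. *Nr1d1* lies outside the lines in 3 of the panels, and no gene does so for ADX+PSL over sham+PSL at ZT22; *Npas2* has a ratio in 1 panel only.

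Among the activators, *Arntl* had a level of 529 at ZT10 and 508 at ZT22 in sham+PSL mice, and of 838 at ZT10 and 662 at ZT22 in ADX+PSL mice. Both ADX+PSL arrays were above both sham+PSL arrays. The level was 1.59-fold higher in ADX+PSL than in sham+PSL mice at ZT10 (log2 ratio 0.67 ± 0.20) and 1.30-fold higher at ZT22 (0.38 ± 0.20). Between times, the log2 ratio of ZT10 over ZT22 was 0.06 ± 0.20 in sham+PSL mice, within the spot error, and 0.34 ± 0.20 in ADX+PSL mice. Its probe lies at chr7:120457261-120457320 (mm9, plus strand).

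*Clock*, which encodes the partner of ARNTL, had levels of 553 and 576 in sham+PSL mice at ZT10 and ZT22 and of 656 and 568 in ADX+PSL mice. Sorted by size, no neighbouring levels differed by more than their spot error. The log2 time ratio in ADX+PSL mice was 0.21 ± 0.20, and the log2 ratio between operations at ZT10 was 0.24 ± 0.20. *Npas2*, which can take the place of *Clock*, had levels of 19.2 at ZT10 in sham+PSL mice and 32.7 at ZT10 in ADX+PSL mice. At ZT22 it was not well above background in either operation, so its time ratio is only a bound, with ZT10 at least 1.04-fold higher for sham+PSL mice and at least 1.48-fold higher for ADX+PSL mice. A bound sets the brighter array against the higher of the dim probe's own level and the lowest level well above background on its array. The log2 ratio of *Npas2* between operations at ZT10 was 0.77 ± 0.34, and it was 0.15 with normexp background correction and 0.20 with no background correction, so its place past 1.5-fold depended on that step.

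Of the period genes, *Per1* had a level of 2977 at ZT10 and 2109 at ZT22 in sham+PSL mice, and of 2124 at ZT10 and 1601 at ZT22 in ADX+PSL mice. It was higher at ZT10 in both operations and lower in ADX+PSL than in sham+PSL mice at both times. The log2 time ratio was 0.50 ± 0.20 for sham+PSL mice and 0.41 ± 0.20 for ADX+PSL mice, and the log2 ratio between operations was -0.49 ± 0.20 at ZT10 and -0.40 ± 0.20 at ZT22. None of these 4 values reached 1.5-fold, although with no normalization the sham+PSL time ratio was 0.59. The probe lies at chr11:68923364-68923423 (mm9, plus strand), and the second *Per1* probe was well above background on 0 of the 4 arrays.

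*Per2* had levels of 128 and 118 in sham+PSL mice at ZT10 and ZT22, and of 99.2 and 122 in ADX+PSL mice. The ADX+PSL array at ZT10 was the low one, with a log2 ratio to sham+PSL mice at that time of -0.37 ± 0.21. *Per3* was lower at ZT10 than at ZT22 in both operations, at 121 against 147 in sham+PSL and 114 against 135 in ADX+PSL mice. Its log2 time ratios were -0.29 ± 0.21 and -0.25 ± 0.22, a little past the spot error.

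Of the cryptochromes, *Cry1* had levels of 36.7 and 47.6 in sham+PSL mice at ZT10 and ZT22, and of 40.8 and 41.0 in ADX+PSL mice. Its log2 time ratio was -0.38 ± 0.26 in sham+PSL mice, and -0.10 with normexp background correction. *Cry2* lay between 6331 (ADX+PSL at ZT22) and 7616 (sham+PSL at ZT10), and sorted by size no neighbouring levels differed by more than their spot error. A second *Cry2* probe, designed on another transcript, gave other ratios. Its levels were 564 and 418 in sham+PSL mice and 533 and 592 in ADX+PSL mice at ZT10 and ZT22, so that its log2 ratio between operations at ZT22 was 0.50 ± 0.20 where the brighter probe gave -0.18 ± 0.20.

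*Nr1d1*, the REV-ERB alpha gene, had a level of 715 at ZT10 and 352 at ZT22 in sham+PSL mice. In ADX+PSL mice the order of the times was the opposite, with 189 at ZT10 and 319 at ZT22. The sham+PSL array at ZT10 was the highest and the ADX+PSL array at ZT10 the lowest, while the ZT22 arrays lay between them and differed by less than their spot error (log2 ratio -0.14 ± 0.21). In sham+PSL mice its ZT10 level was 2.03-fold higher than the ZT22 level (log2 ratio 1.02 ± 0.20), and in ADX+PSL mice it was 1.69-fold lower (-0.75 ± 0.21). The difference between these log2 ratios was 1.78 ± 0.29, for which the design leaves no test. Of the 9 clock genes measured on every array, 1 (*Nr1d1*) had time ratios of opposite sign that were each past 2 spot errors, as had 0.924% of the 25012 probes measured on every array. Between operations at ZT10 the gene was 3.78-fold lower in ADX+PSL mice (log2 ratio -1.92 ± 0.21), and 75 of the 26416 probes with a ratio there, its own included, had a value as low. With normexp background correction the ADX+PSL time ratio was -0.53 and with no background correction -0.56, short of 1.5-fold, with the direction kept.

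The probe behind these values is shown because a single probe carries the *Nr1d1* result. Its ends lie 503 bases apart in the genome at chr11:98630526-98631028 (mm9, minus strand), so its 60 bases join separate stretches, as spliced RNA does:
Nr1d1 probe: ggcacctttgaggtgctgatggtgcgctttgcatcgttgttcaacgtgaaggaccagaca
*Nr1d1* overlaps the thyroid hormone receptor gene *Thra*, which is read from the other strand. *Thra*, named after its values were seen, had levels of 7509 and 6752 in sham+PSL mice at ZT10 and ZT22 and of 7303 and 6393 in ADX+PSL mice. Its log2 ratio between operations at ZT10 was -0.04 ± 0.20, and whether its probe reads the overlapping stretch was not checked.

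*Nr1d2*, the REV-ERB beta gene, had levels of 2485 and 1987 in sham+PSL mice at ZT10 and ZT22, and of 2325 and 2174 in ADX+PSL mice. Its log2 time ratio was 0.32 ± 0.20 for sham+PSL mice and 0.10 ± 0.20 for ADX+PSL mice, and between operations at ZT10 it was -0.10 ± 0.20. This probe is placed by the files at chr19:40271435-40271494 (mm9, plus strand), away from the second *Nr1d2* probe at chr14:19037253-19037312 (mm9, minus strand). Only the chromosome 14 probe matched *Nr1d2* in RefSeq by accession, and what the chromosome 19 probe reads was not checked. As the brighter one, the chromosome 19 probe stands for *Nr1d2* in the counts, medians and figures. The probes differed in the sign of the ADX+PSL log2 time ratio, at 0.10 ± 0.20 and -0.15 ± 0.20. The chromosome 14 probe gave 1437 and 1265 in sham+PSL mice and 1231 and 1368 in ADX+PSL mice, with a log2 ratio between operations at ZT10 of -0.22 ± 0.20. This probe had its highest and lowest levels on the same arrays as *Nr1d1*, over a 1.17-fold range.

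Of 13 other feedback-loop and output factors of the clock, all 13 had a ratio in every comparison. In sham+PSL mice 0 were 1.5-fold higher or lower at ZT10, and in ADX+PSL mice 0 were higher and 1 was lower (*Dbp*), where 3.24% of all probes were lower. Between operations at ZT10, 0 were higher and 2 were lower in ADX+PSL mice (*Dbp* and *Ciart*), against 3.73% of all probes. Both were also past the study's limits, as were 1.74% of all probes. At ZT22 1 was lower (*Ciart*), against 3.22% of all probes. The others, among them *Tef*, *Hlf*, *Nfil3*, *Bhlhe40*, *Bhlhe41*, *Rora*, *Rorb*, *Arntl2*, *Timeless* and *Tipin*, passed in no comparison by their main probe. A second *Bhlhe41* probe, which by mean linear level would be the main one, was 2.39-fold lower in ADX+PSL mice at ZT22 and past the study's limits, where the main probe gave a log2 ratio of -0.13. With it the count at ZT22 would be 2. A dimmer *Timeless* probe was 1.71-fold higher at ZT10 in sham+PSL mice (log2 ratio 0.77 ± 0.35), where the main probe gave 0.03 ± 0.21. A dim *Arntl2* probe was well above background on the ADX+PSL array at ZT22 only, at least 2.76-fold above the ZT10 array of that operation and at least 1.93-fold above the sham+PSL array at ZT22, both past the study's limits. Another was well above background on the sham+PSL array at ZT10 only, at least 1.34-fold above the ADX+PSL array at that time. It was past the study's limits there too (Z of -3.58).

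*Dbp*, which encodes a PAR bZIP activator driven by the clock, had levels of 22527 and 16046 in sham+PSL mice at ZT10 and ZT22, and of 6433 and 13262 in ADX+PSL mice. As with *Nr1d1*, the sham+PSL array at ZT10 was highest and the ADX+PSL array at ZT10 lowest, and the log2 time ratio was 0.49 ± 0.20 with the adrenal glands and -1.04 ± 0.20 without them. A second *Dbp* probe gave 0.56 ± 0.20 and -1.18 ± 0.20. *Ciart*, which encodes a repressor of the ARNTL pair, had levels of 199 and 133 in sham+PSL mice and of 61.7 and 85.4 in ADX+PSL mice, and was 3.22-fold lower in ADX+PSL mice at ZT10 (log2 ratio -1.69 ± 0.23).

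**Figure D3:**
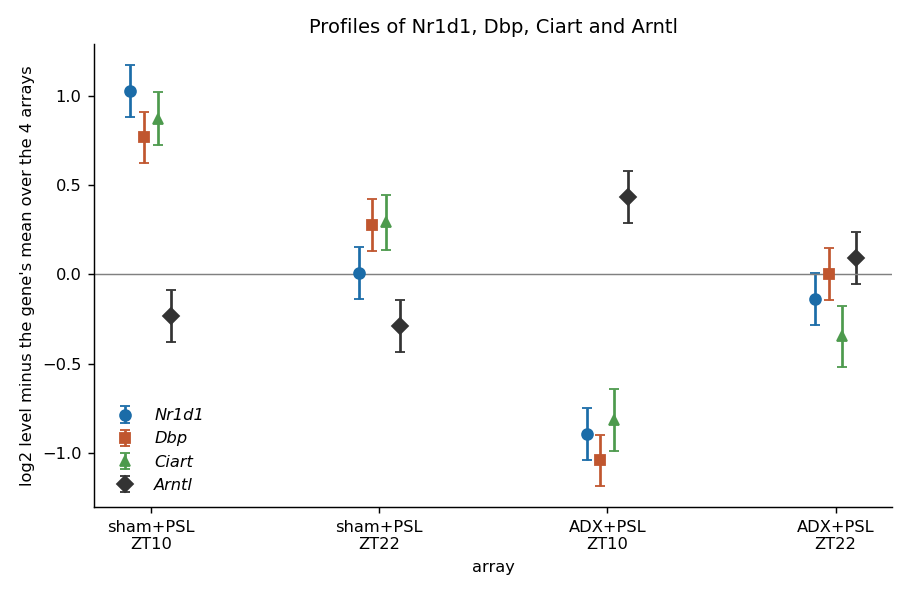
Log2 level minus the gene's own mean over the 4 arrays for *Nr1d1*, *Dbp*, *Ciart* and *Arntl*, with bars of 1 SD of the spot error. The first 3 genes are highest on the sham+PSL array at ZT10 and lowest on the ADX+PSL array at ZT10, where *Arntl* is highest.

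**Figure D4:**
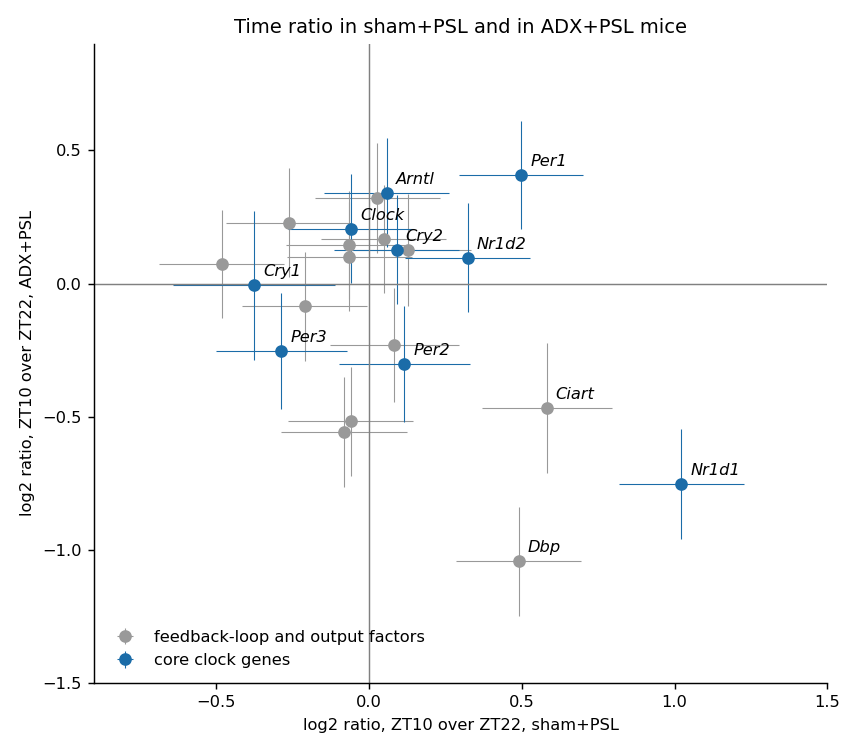
Log2 ratio of ZT10 over ZT22 in ADX+PSL mice against that in sham+PSL mice, for the core clock genes and the other feedback-loop and output factors, with bars of 1 SD of the spot error. *Nr1d1* lies at 1.02 in sham+PSL and -0.75 in ADX+PSL mice, and *Per1* is positive in both at 0.50 and 0.41.

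The promoters of *Nr1d1*, *Dbp* and *Ciart*, which passed the study's limits between operations at ZT10, are given as the 250 bases before the RefSeq start (GRCm38.p6), in the direction of the gene. Capitals mark matches to the motifs searched: the E-box CACGTG, the E-prime box CACGTT, the D-box (TTATGTAA or TTACATAA), the ROR element core TAGGTCA, the cAMP response element TGACGTCA and the glucocorticoid receptor half-site TGTTCT, each on both strands.
Nr1d1, chr11:98775378-98775627, minus strand: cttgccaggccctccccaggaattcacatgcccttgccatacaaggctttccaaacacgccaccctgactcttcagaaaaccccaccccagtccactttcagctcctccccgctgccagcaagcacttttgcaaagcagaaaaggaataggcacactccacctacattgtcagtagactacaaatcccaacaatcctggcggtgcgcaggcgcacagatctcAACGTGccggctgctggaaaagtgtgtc
Dbp, chr7:45704997-45705246, plus strand: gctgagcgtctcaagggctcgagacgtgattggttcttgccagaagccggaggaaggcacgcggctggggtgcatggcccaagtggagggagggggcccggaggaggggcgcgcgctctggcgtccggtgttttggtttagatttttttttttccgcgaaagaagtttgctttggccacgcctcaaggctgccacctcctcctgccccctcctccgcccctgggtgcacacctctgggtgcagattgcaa
Ciart, chr3:95882229-95882478, minus strand: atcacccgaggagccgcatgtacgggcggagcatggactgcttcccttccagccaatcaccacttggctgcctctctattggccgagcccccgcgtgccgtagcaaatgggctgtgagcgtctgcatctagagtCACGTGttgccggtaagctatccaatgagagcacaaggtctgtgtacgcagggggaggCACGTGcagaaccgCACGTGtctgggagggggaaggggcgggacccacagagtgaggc
*Ciart* held 3 E-boxes, *Nr1d1* held 1 E-prime box on the opposite strand, and *Dbp* held no match in this window. Of all 32851 RefSeq windows of 300 bases (250 before and 50 after the start), 7.15% held an E-box, 0.0883% held 3 or more, and 4.68% held an E-prime box. A match is a description of the letters and not a site of binding.

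Of the 10 clock genes, 9 had a window among those taken from RefSeq. *Per2* had none, although its probe matched RefSeq by accession, and the reason was not worked out. An E-box was found for *Per1* and *Cry1*, an E-prime box for *Cry1*, *Cry2* and *Nr1d1*, the D-box for *Per3* (2 matches in its window), and the ROR element core for *Arntl*, after the start in 1 of its 2 windows. The D-box was in 0.938% of all windows and the ROR element core in 2.61%. The cAMP response element (1.79% of windows) and the glucocorticoid receptor half-site (19% of windows) had 0 matches among the clock genes.

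Kinases, a phosphatase, ligase subunits and other regulators that set the stability or activity of clock proteins were measured for 15 genes, among them *Csnk1d*, *Csnk1e*, *Csnk1a1*, *Csnk2a1*, *Gsk3b*, *Fbxl21*, *Btrc*, *Fbxw11*, *Usp2*, *Sirt1*, *Nampt*, *Prkaa1*, *Prkaa2* and *Ppp1cc*. In each of the 4 comparisons 0 of 15 reached 1.5-fold in either direction by the main probe, a count near the shares of all probes given above (1.92% to 3.8% per direction). A dimmer *Ppp1cc* probe had a log2 ratio between operations of 0.62 ± 0.20 at ZT10. By the main probe, the genes with the widest values were *Csnk2a1*, a casein kinase 2 subunit, at -0.50 ± 0.20 between times in sham+PSL mice, and *Usp2*, a deubiquitinase, at -0.41 ± 0.20 between operations at ZT10.

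Among 9 other genes known to follow the clock in many tissues (*Noct*, *Wee1*, *Tspan4*, *Lonrf3*, *Usp2*, *Cdkn1a*, *Por*, *Pdk4* and *Fkbp5*), 0 passed in sham+PSL mice between times, and in each other comparison 1 was higher and 0 were lower. *Cdkn1a*, a cell cycle inhibitor gene, was 1.59-fold higher at ZT10 in ADX+PSL mice and had a log2 ratio between operations of 0.59 ± 0.20 at ZT10. Its levels were 462 and 323 in sham+PSL mice at ZT10 and ZT22 and 695 and 438 in ADX+PSL mice, so ZT10 was above ZT22 in both operations. A dim *Cdkn1a* probe was well above background on the sham+PSL array at ZT22 only, at least 7.70-fold above the ZT10 array of that operation and at least 5.16-fold above the ADX+PSL array at ZT22, both past the study's limits. Another dim *Cdkn1a* probe was well above background on the sham+PSL array at ZT10 only and past the study's limits in the other time direction (Z of 2.17), although its bound for time was under 1-fold and is not given. *Por*, which encodes the reductase that serves cytochromes P450, was 1.52-fold higher in ADX+PSL mice at ZT22. With 1.92%, 3.31% and 3.1% of all probes higher in these comparisons, 1 of 9 is a small count to read.

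The median log2 ratio over the clock genes with a ratio was 0.09 between times in sham+PSL mice and 0.10 in ADX+PSL mice, against 0.01 and 0.00 over all probes. Between operations it was -0.09 at ZT10 and -0.12 at ZT22, against 0.00 and 0.01. For the 13 feedback-loop and output factors the medians were -0.06, 0.07, -0.17 and -0.17 in the same order, and for the 15 regulators -0.06, 0.05, 0.02 and -0.11. For the 9 clock-following genes they were 0.06, 0.01, -0.09 and -0.10.

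The additive fit with limma, in which operation and time each have an effect shared by the arrays, had 1 residual degree of freedom. It called 0 of the 10 clock genes for time and 0 for operation, as it called 0% of all 28845 probes fitted for either. At an unadjusted threshold of 0.05, 2 clock genes passed for time (*Npas2* and *Per1*) and 3 for operation (*Npas2*, *Per1* and *Arntl*), against 4.92% and 6.25% of all probes. The pass of *Npas2* rests on ZT22 values at background, and with the fit kept to probes well above background on all 4 arrays, 1 clock gene passed for time (*Per1*) and 2 for operation (*Per1* and *Arntl*), against 6.59% and 8.57% of the 25012 probes in that fit. *Per1* had a shared log2 time effect of 0.45 (adjusted p = 0.93), higher at ZT10 on both pairs of arrays, and *Arntl* a shared log2 operation effect of 0.52 (adjusted p = 0.79), higher in ADX+PSL mice on both pairs. For *Nr1d1* the shared time effect was 0.13 (adjusted p = 0.98), as its time ratios have opposite signs.

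Of the 22331 named probes that every array measured above background, those nearest to *Arntl* in profile were *Gdf7*, *L3mbtl4*, *Il21*, *Rbm12b* and *AI594674*. They lay at Euclidean distances of 0.038 to 0.077 between centred log2 levels over the 4 arrays. *Gdf7*, *L3mbtl4* and *Il21* had levels of 23.9 to 53.9, close to the lowest level well above background (12.8 to 22.2 by array). How near unrelated probes come over 4 values was not tested. Nearest to *Nr1d1*, at larger distances of 0.33 to 0.39, were *Adam23*, *F13a1*, *Pf4*, *Slc5a5* and *Prosc*. *Pf4* (platelet factor 4) had levels of 362 and 209 in sham+PSL mice at ZT10 and ZT22 and of 93.4 and 135 in ADX+PSL mice.

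Markers of the cell types that a cord slice can hold were read on the same arrays. The 6 neuronal markers were all well above background on every array, and their summed level varied little, between 165461 and 180001 (brightest gene *Nefl*). The 6 microglial markers summed to 71830 and 89959 in sham+PSL mice at ZT10 and ZT22 and to 75398 and 79418 in ADX+PSL mice. Most of this sum is *Itgam* (44355 to 53144). The median log2 ratio of the 6 between operations was -0.12 at ZT10 and -0.31 at ZT22. *Aif1*, *Cx3cr1*, *Csf1r* and *Tmem119* were lowest on the ADX+PSL array at ZT10, while *Itgam* and *P2ry12* were lowest on the sham+PSL array at ZT10. *Aif1* was 1.56-fold lower at ZT10 than at ZT22 in ADX+PSL mice. The 4 endothelial markers summed to 6587, 7357, 7456 and 8413 (brightest gene *Flt1*). The endothelial markers went both ways between operations at ZT22. The log2 ratio was 0.53 for *Cldn5* and 0.20 for *Pecam1*, but -0.11 for *Flt1* and -0.75 for *Cdh5*. Of 3 genes of the hypothalamus, *Avp* was well above background on 0 arrays, while *Vip* (brightest) and *Oxt* were on all 4, and the list summed to 169, 209, 123 and 143.

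The 7 markers of meningeal fibroblasts, led by *Dcn*, summed to 17091 and 14493 in sham+PSL mice at ZT10 and ZT22 and to 5205 and 5479 in ADX+PSL mice. All 7 were at least 1.5-fold lower in ADX+PSL mice at ZT10, and 5 of the 6 with a ratio at ZT22, so this list was low on both ADX+PSL arrays. At ZT22 its median log2 ratio was -1.60 where that of *Nr1d1* was -0.14. *Dcn*, *Col1a2* and *Lum*, among these 7, had the order of *Nr1d1*. *Lum* had levels of 483 and 213 in sham+PSL mice and of 86.2 and 146 in ADX+PSL mice. *Dcn* had 6864 and 6121 in sham+PSL mice and 2262 and 2580 in ADX+PSL mice.

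The 6 astrocyte markers summed to 42821 and 48308 in sham+PSL mice and to 35903 and 46423 in ADX+PSL mice. The low value on the ADX+PSL array at ZT10 came from *Gfap*, the brightest, at 8565 there and 15516 to 18028 on the other arrays. A second *Gfap* probe was also low there (log2 ratio between operations -0.66 ± 0.20) and the third was not (0.10 ± 0.20). Of the Schwann cell and nerve root genes, *Prx* was lower on both ADX+PSL arrays (466 and 247 in sham+PSL mice, 40.9 and 36.3 in ADX+PSL mice), while *Pmp22* differed little between operations, with log2 ratios of -0.21 ± 0.20 at ZT10 and -0.11 ± 0.20 at ZT22.

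The 6 muscle markers (brightest *Myh4*) summed to 1919 on the sham+PSL array at ZT10, which was also the highest for *Nr1d1*, and to 139, 144 and 141 on the others, with *Mylpf* at background on all 4. The 4 red blood cell markers (brightest *Hba-a2*) summed to 14207 on the sham+PSL array at ZT22 to 97298 on the other sham+PSL array, and to 68402 and 60288 in ADX+PSL mice at ZT10 and ZT22. The part of these cell types in the values of the clock genes was not tested, and in a whole slice fewer cells of a type and less RNA per cell cannot be told apart.

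**Figure D5:**
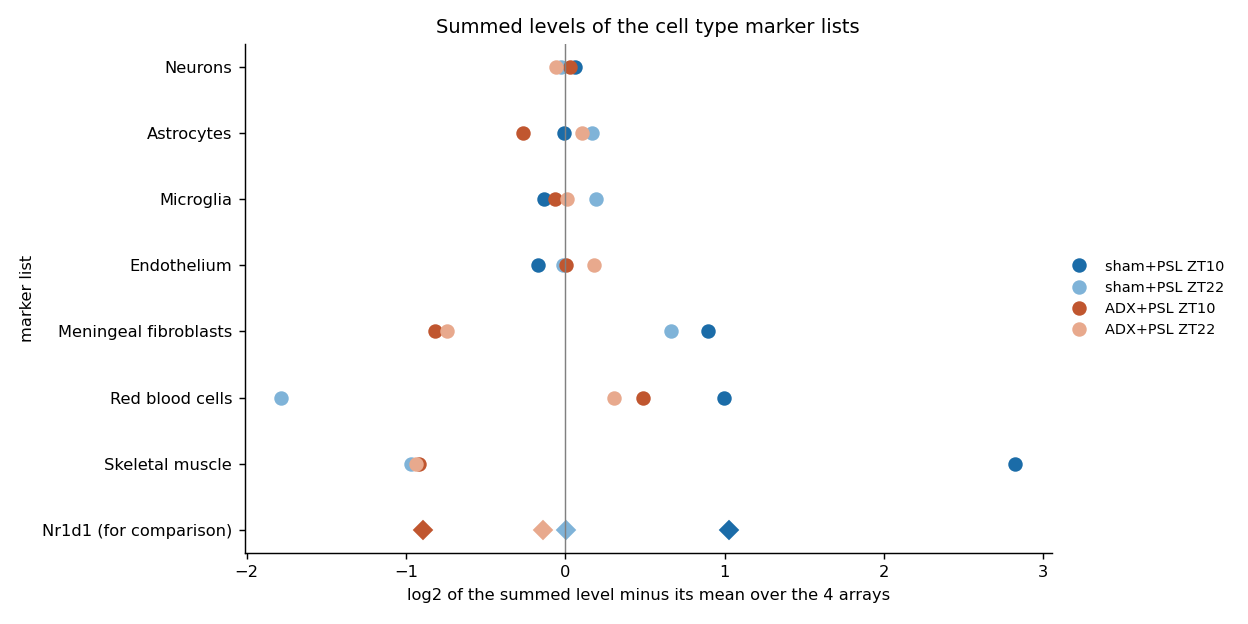
Log2 of the summed level of the marker lists minus its mean over the 4 arrays (circles), with *Nr1d1* treated the same way (diamonds). Fibroblast markers are low on both ADX+PSL arrays (5205 and 5479), muscle markers are high on the sham+PSL array at ZT10 (1919), and *Nr1d1* is low on the ADX+PSL array at ZT10 (189).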

How the data were processed

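Cy3-labelled cRNA of 4 RNA samples was hybridized to Agilent whole mouse genome arrays of 60-base probes. Spot intensity was read by the authors with Feature Extraction, version 10.7.1.1 per the file headers and 9.5.1.1 per the submitters' notes, and the deposited table holds intensity after quantile normalization between the 4 arrays, on a linear scale with a median of 105 in each. The deposited flags for background and the spot errors were read from the scanner files. Other deposited flags (saturation, surrogate values, outlier spots) removed no spot. Per the file headers, probe positions are on mm9.

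Ratios were formed where a probe was well above background on both arrays. Where a gene has several probes, its value is that of the brightest by mean log2 level. By mean linear level this would change *Bhlhe41* only. The spot error is the ratio of the deposited error and intensity on the log2 scale. It was 0.144 on every array for bright probes such as that of *Cry2*, so it is not a spread measured between spots. Among probes well above background with 10 spots or more, the median log2 SD between spots was 0.044 to 0.059 by array. The genes named are all 10 members, lists of loop and output factors, regulators, clock-following genes and cell type markers, the 5 nearest genes to *Arntl* and *Nr1d1*, and *Thra*, added after its values were seen. The members and lists were chosen with earlier results of these data known. The additive fit (operation and time) used limma 3.58.1 in R 4.3.3, on probes that 1 array or more measured well above background, adjusted by Benjamini-Hochberg. Alternatives were other normalizations (own quantile, 75th percentile shift, none, pairs), normexp with an offset of 50 or no background correction, the mean over probes, other background filters and a lower and a higher fold limit. Of the 13 probes, 10 matched RefSeq by accession, all with the same symbol. Python 3.11.15 with pandas 2.3.3, numpy 2.4.6 and matplotlib 3.10.9 was used for the rest.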

Additional observations from a re-analysis of the deposited data

Results flagged for a closer look

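By the main probe, the time ratio pointed in opposite directions in sham+PSL and ADX+PSL mice, each by more than 2 spot errors, for 2 of the 45 clock and clock-related genes measured in all 4 conditions. The second *Bhlhe41* probe also met this rule, in the reverse direction, at -0.44 ± 0.21 in sham+PSL and 0.49 ± 0.22 in ADX+PSL mice. Of the 25012 probes measured on all arrays, 0.924% met the same rule. For *Nr1d1* the log2 time ratio was 1.02 with the adrenal glands and -0.75 without them, a difference of 1.78. For *Dbp* it was 0.49 and -1.04, a difference of 1.53. With 1 array per condition these differences were not tested.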

How the results depend on the processing

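The 37 log2 ratios of single clock genes were recomputed under up to 9 alternatives, 332 values in all. Of these, 325 moved by less than the spot error, 7 moved by more, and 0 called ratios changed direction. *Nr1d1* between operations at ZT10 ranged from -1.99 to -1.58, *Arntl* there from 0.59 to 0.67, and the difference of the time ratios of *Nr1d1* from 1.42 to 1.96. Without normalization the median of all probes shifted to -0.10 between times in ADX+PSL mice and 0.12 between operations at ZT22.

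For time in sham+PSL mice, 2 clock genes passed the limit for higher without normalization (3.51% of all probes) and 3 at the lower fold limit (9.7%). Those 3 include *Nr1d2* by its chromosome 19 probe (log2 ratio 0.32), where the chromosome 14 probe gave 0.18. Also in sham+PSL mice, 1 was lower at the lower fold limit (10.8%), and 1 passed the study's ratio limit without Z (1.91%). For time in ADX+PSL mice, 1 was higher with no background filter (6.69%) and 2 at the lower fold limit (7.92%), and 0 were lower with normexp (1.23%), with no background correction (1.15%) and at 2-fold (1.04%). The median there was 0.00691 without normalization and -0.0125 as the mean over probes. Between operations at ZT10, 1 was higher with normexp (1.29%), with no background correction (1.18%) and with a filter on all 4 arrays (3.02%), 0 at 2-fold (0.746%), and 3 were lower at the lower fold limit (9.28%). At ZT22, 1 was higher (10.8%) and 1 lower (9.69%) at the lower fold limit, and the median was -0.0340 without normalization and -0.0211 as the mean over probes. Except where the step itself shows it (another limit, filter or probe), the cause was not tested. The additive fit with limma called 0 clock genes under each alternative, while the number of all probes called went up to 14 for time and 39 for operation, both with an intensity trend. The main probes of *Npas2* and *Cry1* were the dimmest of the clock genes, at levels of 13.8 to 32.7 and 36.7 to 47.6. Whether their dimness bears on these shifts was not tested. The additive fit compared the arrays in pairs by time and by operation, and with 1 array per condition no other pairing was possible.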

Other observations

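Of the 9 clock genes measured on every array, 5 were highest on the sham+PSL array at ZT10 (*Per1*, *Per2*, *Cry2*, *Nr1d1* and *Nr1d2*), 2 on the sham+PSL array at ZT22 (*Per3* and *Cry1*), 2 on the ADX+PSL array at ZT10 (*Arntl* and *Clock*) and 0 on the ADX+PSL array at ZT22. The lowest level was on the ADX+PSL array at ZT10 for 3 of them (*Per2*, *Per3* and *Nr1d1*). By its chromosome 14 probe, *Nr1d2* was also lowest there, at 1231. Most of these orders rest on gaps smaller than the spot error. Both sources of the Feature Extraction version cannot hold for the same files, and the values used here are those of the files.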
